A study of Mus musculus with 47 samples.

Results

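The 9 genes described here encode calcium and calmodulin signalling proteins: the 4 subunits of calmodulin kinase II (Camk2a, Camk2b, Camk2d and Camk2g), calmodulin kinase IV (Camk4), a pair of calmodulin genes (Calm2 and Calm3) and the main catalytic subunits of calcineurin (Ppp3ca and Ppp3cb). They were taken by name, as 9 of the 22800 gene symbols of the read count table, with earlier results of these data known but with no limit on a measured value. The study drew the cytosol of single fluorescent neurons into a patch pipette, amplified the polyadenylated RNA as cDNA and sequenced each cell as its own library. Its purpose was to compare NPY-positive interneurons of the auditory cortex (AC, a neocortical area) with those of the hippocampal field CA3. Of the 47 columns, 20 are labelled NPY-positive cells of AC, 21 NPY-positive cells of CA3, 3 NPY-positive cells of CA1, 2 NPY-positive cells of the dentate gyrus and 1 an NPY-negative cell of CA3. All mice carried a green fluorescent reporter of neuropeptide Y, were 3 to 8 weeks old, and no treatment is named in the labels. The reporter marks every cell in which it is active and so does not define 1 interneuron class. AC cells were sampled in layers 1 and 2 of coronal slices and CA3 cells in stratum lacunosum-moleculare of horizontal slices, so that the slice plane cannot be told apart from the region.

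The values below come from 10 AC cells (N3X, N4, N41, N42, N43, N44, N46, N5, N7 and N8) and 13 CA3 cells (N26 to N34 and N37 to N40), with 3 CA1 cells (N1, N2X and N6) beside them. These AC and CA3 columns had been matched earlier to the cells drawn in the heat maps of the study, and are only a portion of the CA3 cells that the study kept. All labelled cells are given beside them for the results that change most. The labels name no mouse for any of the cells, which came from 8 mice in all. Each region was therefore taken as 1 sample, no test between regions was made, and an SD over cells describes only the spread of these cells.

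Calcium that enters an active neuron binds calmodulin, and the loaded calmodulin then switches on kinases of the CaMK family and the phosphatase calcineurin. Calmodulin kinase II is a large ring built from alpha, beta, delta and gamma subunits, of which alpha is known as a marker of excitatory forebrain neurons and beta binds actin filaments. Calmodulin kinase IV acts mainly in the nucleus on CREB, whereas calcineurin dephosphorylates NFAT factors and many synaptic proteins.

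Calm2 and Calm3 encode the same protein from separate genes, so whether their reads can be told apart rests on their nucleotide sequences. The first 120 of 450 coding bases of both are shown, from the GENCODE vM21 transcripts of build GRCm38, with capitals at each position where the genes differ.
Calm2: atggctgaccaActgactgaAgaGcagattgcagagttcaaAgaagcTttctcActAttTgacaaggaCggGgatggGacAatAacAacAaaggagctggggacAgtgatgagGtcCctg
Calm3: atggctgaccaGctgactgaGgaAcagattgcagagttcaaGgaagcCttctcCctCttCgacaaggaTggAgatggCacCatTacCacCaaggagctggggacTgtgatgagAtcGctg
In these stretches 18 positions differed, and in the whole coding sequences 78 did, which leaves the genes 82.7% identical. The longest identical run was 17 bases, shorter than the minimum read length of 30 bases kept by the study, and no window of 30 bases was shared between their longest protein-coding transcripts. Windows shared with other annotated genes made up 23.6% of the Calm2 transcript (among them Gm7308) and 5.62% of that of Calm3. Reads from such windows cannot be placed with certainty, and their part in the calmodulin counts was not tested. Among the kinase and calcineurin genes the shared portion was at most 1.64% (Camk2a), and the only windows shared within the 9 genes were 3 between Camk2a and Camk2b.

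Read totals ran from 1715012 to 6265431 in the 10 AC cells, from 2229519 to 7949918 in the 13 CA3 cells and from 601781 to 3202430 in the 3 CA1 cells. The number of genes with a read was 3163 to 6288 in AC and 3679 to 8149 in CA3. The GABAergic markers Gad1, Gad2 and Slc32a1 summed to 2221 to 17749 CPM (reads scaled to a total of 1000000 in the cell) in AC and 3033 to 15512 CPM in CA3. Most of this sum was Gad1 and Gad2. Slc32a1 had reads in 5 of 10 AC cells and 12 of 13 CA3 cells, with medians of 0.961 and 12.9 CPM. Pyramidal cell markers (7 genes, 6 with reads in AC and 5 in CA3) had a median of 0.391 CPM in AC and 0 in CA3, with single high cells, 138 CPM in N46 of AC and 277 CPM in N26 of CA3. Emx1 was at 0 in AC, and Neurod6 and Tbr1 were at 0 in CA3. Astrocyte markers (5 of 6 genes with reads in AC, 2 of 6 in CA3) had medians of 68.8 CPM in AC and 1.87 CPM in CA3 and reached 1210 and 660 CPM, with Aqp4 at 0. Oligodendrocyte markers (2 of 5 in AC, 4 of 5 in CA3) had medians of 0 and 7.41 CPM and reached 367 and 955 CPM, with Mog at 0. Microglia markers (5 of 6 in both) had medians of 205 and 84.3 CPM and reached 3707 and 1864 CPM, with Tmem119 at 0. The part of these RNAs in the differences between regions was not tested. The labelled columns left out of the set, 10 of AC and 8 of CA3, varied widely in depth. Their read totals ran from 40934 to 6235022 in AC and from 111958 to 2467435 in CA3, with 738 to 6209 and 633 to 5056 genes. Gad1 or Gad2 reads were present in only 6 and 1 of these columns, respectively. The AC column N45 among them, with 5265115 reads and 6209 genes, held reads of all 9 genes.

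All 9 genes were found in both regions, and a cell held reads of 6 to 9 of them in AC and of 5 to 9 in CA3, with a median of 7 in each. Their summed reads were lower in AC, where a cell gave 1256 CPM at the lowest, 2481 at the median and 6222 at the highest, than in CA3, where the values were 3175, 5859 and 8120 CPM. Most of this sum was Calm2. Compared per kb of exon, the order of the median levels was Calm2, Calm3, Camk2b, Ppp3ca, Camk2a, Ppp3cb, Camk2g, Camk2d and Camk4 in AC. In CA3 it was Calm2, Calm3, Ppp3ca, Camk2b, Ppp3cb, Camk2a, Camk2g, Camk2d and Camk4. The medians fell from 1165 CPM per kb (Calm2) over 54.2 (Calm3), 31.1 (Camk2b) and 8.25 (Ppp3ca) to 0 (Camk4) in AC, and from 3227 over 129 (Calm3), 27.9 (Ppp3ca) and 3.58 (Camk2b) to 0 (Camk4) in CA3. Calm2 lay apart from all the rest, whereas from Calm3 down the ranges over cells of neighbouring genes overlapped.

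**Figure D1:**
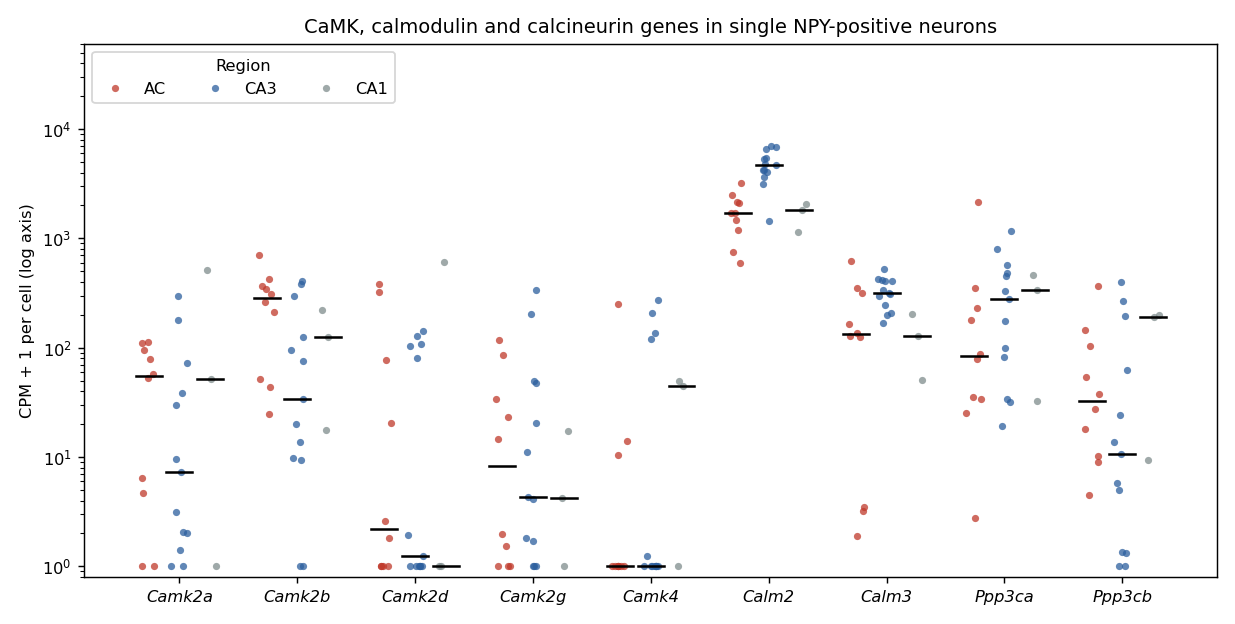
CPM plus 1 (log axis) of the 9 genes in each AC, CA3 and CA1 cell, 1 point a cell, with bars at the medians. The lowest Calm2 point is at 592 CPM, while most Camk2d and Camk4 points lie at or near 0 and the others reach up to 385 CPM in AC and 275 CPM in CA3.

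Calm2 (chr17:87433412-87446935, minus strand) was the most abundant of the 9 genes and was higher in CA3. Its level in the 10 AC cells was 592 CPM at the lowest (N4), 1708 at the median and 3212 at the highest (N46). In the 13 CA3 cells the lowest level was 1431 CPM (N38), the median 4734 and the highest 7069 (N27). All 10 AC cells lay below the CA3 median and 11 of 13 CA3 cells lay above every AC cell, so that the ranges met only through N32, N38 and the upper AC cells. Over all reads of a region the level amounted to 1795 CPM for AC (1781 to 1809, the exact Poisson 95% interval) against 4645 CPM for CA3 (4626 to 4664), 2.59-fold higher in CA3. Such intervals cover counting error only, since reads of amplified cDNA are not independent molecules. The mean log2 level, log2(normalized count + 1), was 12.58 ± 0.98 (SD, n = 10 cells) in AC and 13.91 ± 0.72 (n = 13) in CA3, a difference of −1.33 that exceeded either SD.

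The cells left out of the set did not follow the CA3 cells used. In the 8 other CA3 columns Calm2 ran from 354 to 1428 CPM, below each of the 13 CA3 cells used, and in the 9 other AC columns (N4X, a near copy of N4, not counted) from 0 to 3536 CPM, with reads in 6 of 9. With all labelled cells and N4 standing for N4X, the median was 1701 CPM in AC (n = 19) and 3672 CPM in CA3 (n = 21). The mean log2 level, for which the counts of N4 and N4X were averaged, differed by −2.53.

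Calm3 (chr7:16915379-16924114, minus strand) was also higher in CA3, where it varied little. It measured 0.910, 131 and 623 CPM (lowest, median and highest, N44 and N46 being the extremes) in the 10 AC cells and 168, 313 and 519 CPM in the 13 CA3 cells. In 7 AC cells Calm3 lay below every CA3 cell, while N46 lay above them all. Reads were scarce in 3 AC cells, with 3 in N44, 5 in N7 and 10 in N3X, although the same cells held 1474, 751 and 1716 CPM of Calm2. The log2 levels averaged 7.72 ± 3.56 over AC cells and 10.07 ± 0.57 over CA3 cells, differing by −2.35, which was smaller than the SD in AC. Without N44 the difference was −1.73, and by summed CPM, 194 in AC and 306 in CA3, Calm3 was 1.58-fold higher in CA3. The difference was −3.50 with all labelled cells, with medians of 24.4 CPM (AC) and 247 CPM (CA3).

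The calmodulin genes were also set against each other within each cell, where no size factor enters. Per kb, Calm2 made up 94.6% ± 4.3 (SD, n = 10) of the sum of Calm2 and Calm3 in AC, with cells between 88.5% and 100%, and 95.2% ± 4.1 (n = 13) in CA3, with cells between 82.0% (N38) and 97.6%. The regions differed by less than the spread over cells. In raw reads Calm2 exceeded Calm3 in all 10 AC and all 13 CA3 cells, and the log2 ratio of Calm2 to Calm3 reads averaged 4.85 ± 3.11 over AC cells and 3.84 ± 0.85 over CA3 cells.

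**Figure D2:**
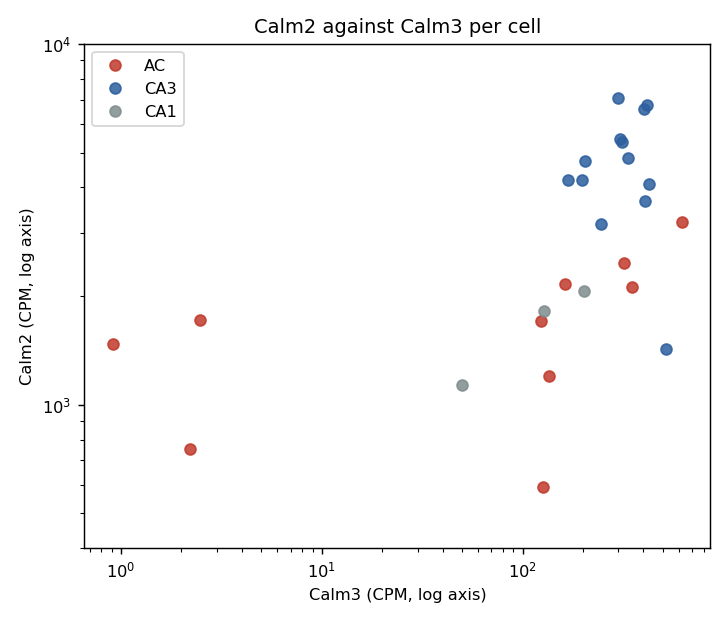
Calm2 against Calm3 in each AC, CA3 and CA1 cell, both axes in CPM on log scales, 1 point a cell. The CA3 points form a group at 168 to 519 CPM of Calm3, and 3 AC cells with 3 to 10 Calm3 reads stand at the left.

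Camk2b (chr11:5969644-6066362, minus strand), the beta subunit of calmodulin kinase II, showed the largest difference towards AC among the 9 genes in the cells used. In AC it had reads in 10 of 10 cells, with 23.7 CPM at the lowest, 284 at the median and 709 at the highest (N41). Among CA3 cells, 11 of 13 held reads, with 0 at the lowest, 32.7 CPM at the median and 404 at the highest (N37). Of the AC cells, 9 lay above the CA3 median, 6 CA3 cells lay below every AC cell, and the upper ends of the regions overlapped. Summed over cells, Camk2b amounted to 296 CPM for AC (290 to 302, the same kind of interval) against 103 CPM for CA3 (100 to 106), 2.88-fold higher in AC. The log2 levels averaged 9.45 ± 1.57 over AC cells and 6.44 ± 3.44 over CA3 cells, differing by 3.02, which was smaller than the SD over CA3 cells. With all labelled cells, of which 13 of 19 in AC and 12 of 21 in CA3 held reads, it was 1.66, and Ppp3cb, at 2.45, was then the gene with the largest difference towards AC.

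Camk2a (chr18:60925618-60988152, plus strand), the alpha subunit, was at 0, 54.4 and 112 CPM (lowest, median, highest) in the 10 AC cells and at 0, 6.32 and 297 CPM in the 13 CA3 cells. Of the AC cells, 8 of 10 held reads (44.4% to 97.5% by the exact Clopper-Pearson 95% interval), as did 11 of 13 CA3 cells (54.6% to 98.1%). These intervals cover counting error only and take the cells as independent, which cells of unnamed mice need not be. The regions overlapped over almost the whole range, and the highest 2 CA3 cells, N28 and N26, exceeded every AC cell. The log2 levels averaged 5.79 ± 3.53 over AC cells and 4.57 ± 3.45 over CA3 cells, differing by 1.22, which fell below 1 when any of 8 single cells (N3X, N4, N42, N44, N46, N27, N34 or N38) was left out. N26 was also the CA3 cell with the most pyramidal marker reads, whereas N28, with the highest Camk2a and Camk2g levels of CA3, had none but held the most oligodendrocyte marker reads of CA3, 955 CPM. The part of these RNAs in the reads of both genes was not tested.

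Camk2d (chr3:126596302-126846326, plus strand), the delta subunit, had many reads in some cells of both regions and few or none in the others. Whether cells without reads lacked this RNA, or it was not captured, was not tested. Camk2d had reads in 6 of 10 AC cells and 7 of 13 CA3 cells, with medians of 1.20 and 0.234 CPM and highest values of 385 CPM (N7) and 142 CPM (N32). With a limit of 10 reads it was present in 4 and 5 cells. A difference in mean log2 level of 0.51 stood against SDs of 4.35 in AC and 4.16 in CA3, and it turned to −0.19 without N7, −0.14 without N5 and −1.14 with all labelled cells.

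Camk2g (chr14:20734875-20794088, minus strand), the gamma subunit, behaved likewise, with reads in 7 of 10 AC cells and 10 of 13 CA3 cells. The median was 7.26 CPM in AC and 3.28 CPM in CA3, and the highest cells were N42 of AC at 117 CPM and N28 of CA3 at 336 CPM. The difference was −0.25 with SDs of 3.74 and 3.55, and it lay above 0 without any of N44, N46, N5, N7, N28 and N29, at most at 0.27, and was −1.48 with all labelled cells.

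The mix of the 4 subunits was computed in each cell as the percent of reads per kb of exon. On average Camk2b held 58.8% ± 29.2 (SD, n = 10) in AC and 48.4% ± 41.8 (n = 12) in CA3, where N40 was left out because it had 44 reads on the 4 genes. Camk2a held 22.6% ± 25.0 and 16.9% ± 22.8, Camk2g 9.47% ± 17.3 and 22.4% ± 31.7, and Camk2d 9.18% ± 14.8 and 12.3% ± 15.3. With the length of the longest transcript in place of all exons, the mean portion of Camk2d was 14.3% in AC and 20.1% in CA3. None of the 4 differences between regions exceeded the SD over cells in either region. The spread among cells of a region was the main feature: Camk2b ran from 14.05% (N42) to 96.8% (N43) in AC and from 0 (N31) to 100% (N38) in CA3.

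Each AC cell had a single subunit with more than 50% of the mix, and so did 10 of 12 CA3 cells and 3 of 3 CA1 cells. At 90% or more stood 2 AC cells and 4 CA3 cells. The leading subunit was Camk2b in 7 AC cells, Camk2a in N44 (73.0%) and N46 (53.9%), and Camk2g in N42 (54.6%). In CA3 it was Camk2b in 7 cells, Camk2g in 4 cells (up to 94.5%) and Camk2a in N31 (67.6%). Camk2d led in no cell with the union of all exons as length, which for Camk2d is 22493 bases. With the length of the longest transcript, 5524 bases, it led in 2 AC cells and 4 CA3 cells, Camk2g then led in 2 CA3 cells and Camk2a in none of them. The leading subunit of N46 then held 46.0%, so that 9 of 10 AC cells had a subunit above 50%. At least 10 reads of 2 subunits were found in 4 AC cells and of 3 subunits in 6 AC cells. In CA3 the number of subunits ranged from 1 (3 cells) over 2 (4 cells) and 3 (4 cells) to 4 (2 cells). Camk2a and Camk2b met in 7 AC cells and 5 CA3 cells. The depth behind these mixes was 496 to 3332 reads a cell on the 4 genes in the 10 AC cells and 120 to 1748 in the 12 CA3 cells. These are reads of amplified cDNA and not independent molecules, so the number of molecules behind a mix is not known. The part of capture and amplification in the leading subunit of a cell and in the spread over cells was not tested.

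**Figure D3:**
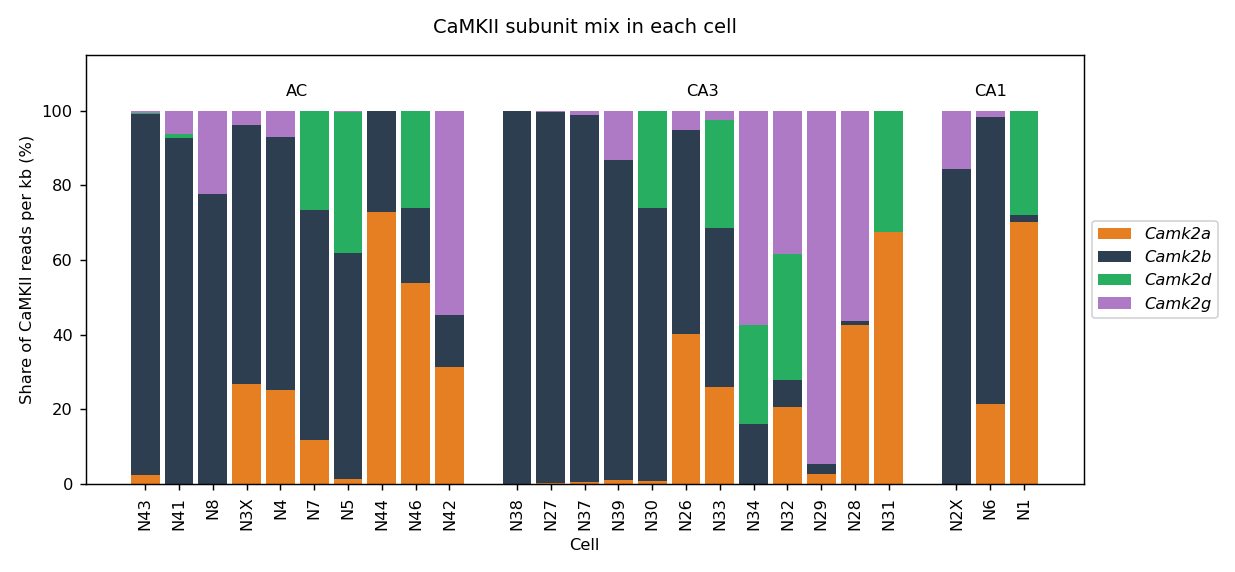
Share of the 4 calmodulin kinase II subunits in the reads per kb of exon of each cell (%), stacked to 100, for 10 AC, 12 CA3 and 3 CA1 cells, grouped by leading subunit. Camk2b leads in 7 cells of each of AC and CA3, and Camk2g leads in 4 CA3 cells and 1 AC cell.

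Camk4 (chr18:32934931-33191228, plus strand), the nuclear kinase, was found in few cells. It had reads in 3 AC cells of 10 and 5 CA3 cells of 13, and the median was 0 in both regions. In AC it stood at 248 CPM in N43, which held 92.8% of all Camk4 reads of the region, at 12.9 CPM in N46 and at 9.52 CPM in N5. In CA3 it stood at 275 CPM in N32, 207 in N30, 136 in N31 and 119 in N40, with 2 reads in N39. At least 10 reads of Camk2d came with at least 10 reads of Camk4 in 2 AC cells and in 3 CA3 cells. Camk4 had reads in too few cells for the comparison across genes (10 or more of the 23), and its difference in mean log2 level, −0.87, was −1.75 without N43 and −0.31 without N30.

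Ppp3ca (chr3:136670124-136937727, plus strand), the alpha catalytic subunit of calcineurin, had reads in all 23 AC and CA3 cells but at very uneven levels. The 10 AC cells gave 1.78 CPM at the lowest (N7), 82.4 at the median and 2169 at the highest (N46). The 13 CA3 cells gave 18.4 CPM at the lowest (N31), 278 at the median and 1173 at the highest (N26). While 8 AC cells lay below the CA3 median, N46 lay above every CA3 cell. N46 alone held 66.4% of the AC reads of Ppp3ca, and over all reads the regions gave 311 CPM (AC, 115.4 without N46) and 323 CPM (CA3). The log2 levels averaged 8.32 ± 2.77 over AC cells and 9.32 ± 1.82 over CA3 cells, differing by −1.004, a size at the limit used for calling that was lost without any of several single cells. It was −0.39 without N7 and −1.54 without N46. N46 and N26 were also the cells with the most pyramidal marker reads in their regions (138 and 277 CPM), and N46 held 2740 CPM of microglia and 1089 CPM of astrocyte markers as well. The part of these RNAs in the Ppp3ca level was not tested.

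Ppp3cb (chr14:20499364-20546573, minus strand), the beta catalytic subunit, gave opposite directions on the scales used. In AC it had reads in 10 of 10 cells, at 3.45, 31.3 and 365 CPM (lowest, median, highest), and in CA3 in 11 of 13 cells, at 0, 9.60 and 398 CPM. The typical AC cell was thus the higher one, with 7 AC cells above the CA3 median and 4 CA3 cells below every AC cell. The log2 levels averaged 7.01 ± 1.95 over AC cells and 4.92 ± 3.71 over CA3 cells, differing by 2.08. Over all reads, however, CA3 was 1.502-fold higher, with 97.8 against 65.1 CPM. A single CA3 cell, N39, held 44.8% of the CA3 reads of Ppp3cb, and N38, with the highest CPM, held 30.6%. Without N39 the CA3 level was 64.5 CPM, about that of AC. N39 also held 660 CPM of astrocyte and 581 CPM of oligodendrocyte markers, whose part in its Ppp3cb, Pcp4l1 and Pde1b reads was not tested.

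Within cells, Ppp3ca exceeded Ppp3cb per kb in 12 of 13 CA3 cells, 8 of 10 AC cells and 3 of 3 CA1 cells. Its portion of the pair was 68.5% ± 29.4 (SD, n = 10) in AC, 79.9% ± 28.01 (n = 13) in CA3 and 68.2% ± 8.4 (n = 3) in CA1. The difference between AC and CA3 was smaller than the SD over cells. The exceptions were N7 of AC, with 0.427% Ppp3ca, N8 of AC, and N31 of CA3, with 7.71%. With the length of the longest transcript, N39 of CA3 was a further exception, with 49.6%, and Ppp3ca then exceeded Ppp3cb in 11 of 13 CA3 cells. At least 10 reads of both genes were found in 9 of 10 AC cells and 8 of 13 CA3 cells, and the other 5 CA3 cells had Ppp3ca alone at that limit.

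**Figure D4:**
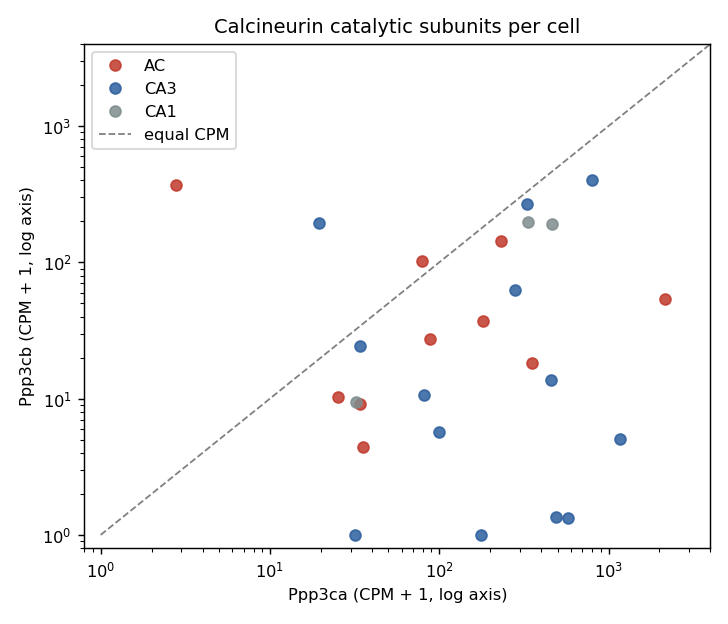
Ppp3cb against Ppp3ca in each cell, both as CPM plus 1 on log axes. Most points lie below the dashed line of equal levels, and N7 of AC, with 1.78 CPM of Ppp3ca and 365 CPM of Ppp3cb, stands alone at the upper left.

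The 9 genes were then set against all genes on the scale of the mean log2 level. A gene with a difference of at least 1 is called here, a size chosen with the data known. A filter of reads in 10 or more of these 23 cells left 5964 genes, for which the median difference was −0.84, with 16.6% called towards AC and 46.9% towards CA3. Higher in AC by any size were 32.1% of all genes and 4 of the 8 genes of the set that met the filter (all but Camk4). Of all 9 genes, 3 were called towards AC (Camk2a, Camk2b and Ppp3cb) and 3 towards CA3 (Calm2, Calm3 and Ppp3ca). The median was −0.25 over the 9 genes and 0.13 over the 8 that met the filter. Relative to the median of all genes the backgrounds were 29.3% towards AC and 29.9% towards CA3, and then 4 genes were called towards AC, including Camk2d at 1.35, and only Calm3 towards CA3, at −1.51. On that relative scale Calm2 was at −0.49 and Ppp3ca at −0.17. The relative call of Calm3 was lost without N7 (−0.95) or N44 (−0.97) and by summed CPM (−0.56), whereas Calm2 was called by summed CPM (−1.28) and with all labelled cells (−1.41). The regions did not separate completely for any of the 9 genes, as for 0.0503% of all genes they did. By the log2 ratio of summed CPM, on which the median of all genes was −0.09, Camk2b stood at 1.53 and Calm2 at −1.37.

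Other genes of the pathway were taken from lists by function, 39 genes in all, of which 37 had reads and 21 met the filter. Of these 21 genes, 10 were called towards AC and 5 towards CA3 (backgrounds of 16.6% and 46.9%), with a median difference of 0.46. Relative to the median of all genes 11 and 3 were called, beside 29.3% and 29.9% of all genes. The kinases of the CaMK cascade held 4 called towards AC and 0 towards CA3 among 5 of 7 genes, with a median of 2.12. Camkk1, which activates CaMKI and CaMKIV, had reads in 9 of 10 AC cells and 6 of 13 CA3 cells, with levels of 7.48 ± 4.50 and 3.09 ± 4.15 on the log2 scale, differing by 4.39. Camkv, a kinase-like vesicle protein that binds calmodulin, had reads in 10 of 10 and 10 of 13 cells, and its log2 levels of 11.08 ± 1.37 and 6.21 ± 3.90 differed by 4.87, more than either SD. Camkk2 differed by 2.12 and Pnck, a CaMKI kinase, by 1.56, both with SDs over cells of 3.37 to 4.77. With all labelled cells the median of this list was 0.83.

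The inhibitors of calmodulin kinase II, Camk2n1 and Camk2n2, were both called towards AC. Camk2n1 stood at 137 CPM over all AC reads and 32.05 CPM over all CA3 reads, with reads in 7 of 10 and 9 of 13 cells, and differed by 1.66. N42 held 45.3% of these AC reads and N26, the CA3 cell with the most pyramidal marker reads, 59.4% of the CA3 reads, and without them the levels were 84.1 and 13.6 CPM. The medians over cells were 10.3 and 3.41 CPM. Camk2n2 differed by 1.16 at low levels, 16.03 and 13.96 CPM. With all labelled cells the median of the pair was 0.46.

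Among the small calmodulin buffers, Nrgn (neurogranin) and Pcp4l1 were called towards AC and Gap43 (neuromodulin) towards CA3, 3 of 4 genes having met the filter. Nrgn had reads in 8 AC and 6 CA3 cells and differed by 2.87. The cells with the most pyramidal marker reads also held most Nrgn reads of their regions, N46 65.3% in AC (672 CPM) and N26 57.9% in CA3 (454 CPM), and the medians over cells were 9.20 CPM in AC and 0 in CA3. Pcp4l1 differed by 4.96 with reads in 8 AC and 3 CA3 cells, whereas over all reads it was 1.60-fold higher in AC, at 332 against 207 CPM. N39 held 57.9% of its CA3 reads (104.1 CPM without N39 and 133 without N29). Gap43 differed by −1.72 with reads in 9 AC and 13 CA3 cells, and relative to all genes by −0.88, below the size called.

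The regulators of calcineurin had 3 of 5 genes that met the filter, with 0 called towards AC and 1 towards CA3. That gene, Rcan2, which inhibits calcineurin, was found in 6 of 10 AC cells and 12 of 13 CA3 cells, with 6.36 ± 5.50 and 9.52 ± 2.93 on the log2 scale. Its medians over cells were close, at 286 CPM in AC and 297 CPM in CA3, and over all reads it stood at 258 and 397 CPM. Ppp3r1, the calcium-binding regulatory subunit of calcineurin, had reads in all 23 cells and differed by −0.18 (2.83 with all labelled cells), whereas over all reads it was higher in AC, at 686 against 480 CPM, as was its median over cells, at 586 against 405 CPM. Of 4 transcription factors and coactivators that met the filter out of 11, Crtc1, a CREB coactivator that calcineurin dephosphorylates, was called towards AC (3.59), and Mef2a (−1.58) and Mef2c (−2.15) towards CA3. Over all reads, however, Mef2a was higher in AC, at 139 against 102 CPM (83.5 in AC without N43), and relative to all genes it was at −0.75, below the size called. Among calmodulin-regulated enzymes, 3 of 8 met the filter. Adcy1, an adenylyl cyclase activated by calmodulin, had log2 levels of 10.46 ± 1.47 in AC cells and 7.90 ± 2.80 in CA3 cells, 2.56 apart. Pde1b, a phosphodiesterase activated by calmodulin, had reads in 2 of 10 AC cells and 10 of 13 CA3 cells, with 4.73 and 93.3 CPM over all reads (0.324 in AC without N8, 49.5 in CA3 without N39) and a difference of −4.61. Pde1b is printed beside a heat map of the study among the genes that differed on these samples, so its direction is not independent evidence.

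**Figure D5:**
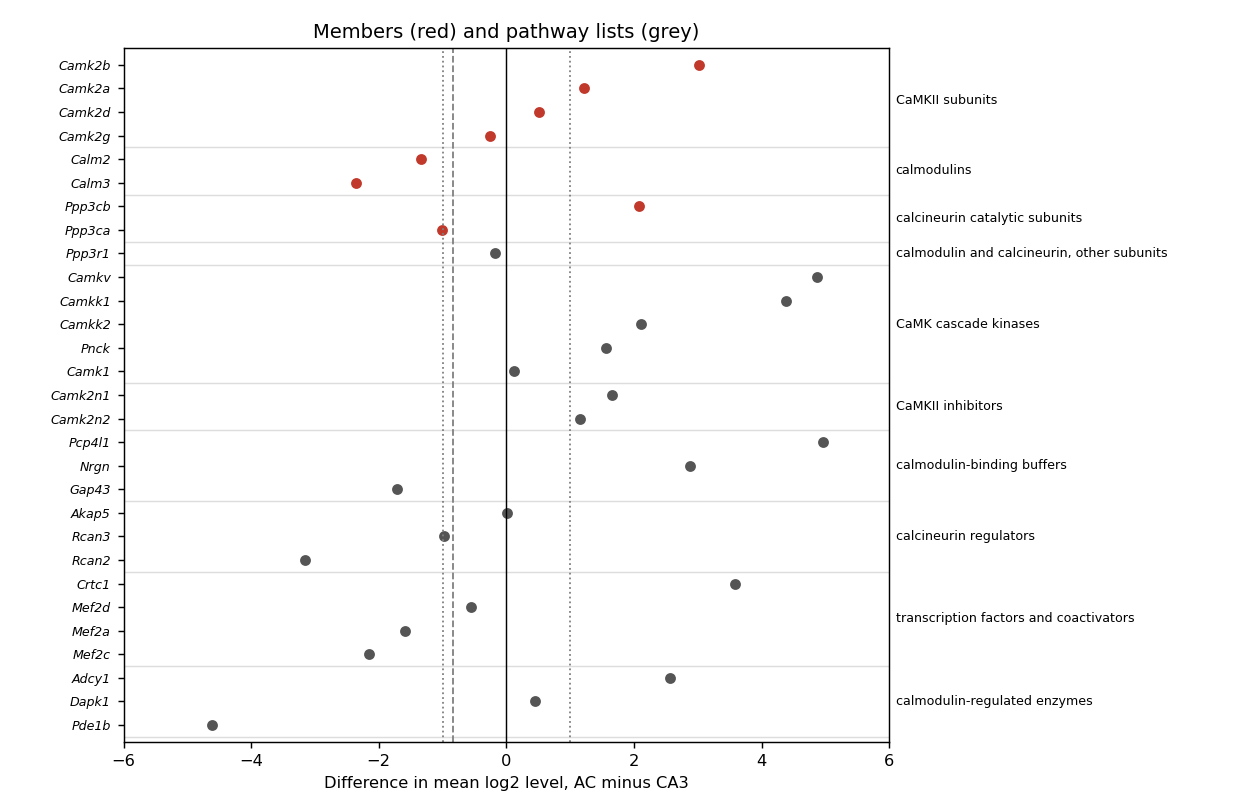
Mean log2 level in AC less that in CA3, for the 8 genes of the set (red) and 21 pathway genes (grey) that had reads in at least 10 of 23 cells, grouped by function. Dotted lines mark −1 and 1 and the dashed line the median of all genes, −0.84, and the points run from −4.61 (Pde1b) to 4.96 (Pcp4l1).

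The 3 CA1 cells had a level of Calm2 (1133, 2068 and 1823 CPM in N1, N6 and N2X) that lay within the range of AC cells, and 2 of them lay within that of CA3 cells. Calm2 per kb held 95.9% ± 1.5 of Calm2 plus Calm3. Camk2b was at 16.6, 220 and 124 CPM in N1, N6 and N2X, and Ppp3cb at 198, 189 and 8.43 CPM. N1 differed from the others in its kinase mix, with 510 CPM of Camk2a and 612 CPM of Camk2d, while N6 and N2X had no Camk2d read. Of the pyramidal markers only Tbr1 had reads in CA1, 138 CPM in N1, with Slc17a7 at 0. N1 also held 1167 CPM of astrocyte and 354 CPM of oligodendrocyte markers, whose part in its kinase mix was not tested, and its library was the shallowest of the 3, with 601781 reads. With 3 cells, the CA1 values are given beside the other regions as a description.

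Genes whose CPM followed those of selected members over the 23 cells were listed by Spearman's rho among 4791 genes with reads in at least 12 cells, as a description. The cells came from 2 regions and differed in depth, and the part of both in these values was not tested. For Camk2a these were Pgp (0.77), Dlgap3 (0.65) and Irak1 (0.65). For Camk2b they were Gm10642 (0.69), Arhgef7 (0.68) and Rab11fip3 (0.67). For Camk4 they were Tbpl1 (0.66), Kcnh1 (0.64) and Nxf1 (0.64), and for Ppp3ca Sdhc (0.71), Yipf2 (0.70) and Ppp1r14b (0.70). None of the other 8 genes was among them.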

How the data were processed

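Whole read counts per gene symbol were deposited by the authors in 1 table, with no scaling. According to the paper, Flexbar and Trimmomatic cleaned the reads, STAR aligned them to GRCm38 and HTSeq counted them, whereas the submitters' processing notes name featureCounts, so the counter is uncertain. The reporter strain is called both NPY-hrGFP and NPY-EGFP in the sources. The paper lists sense, antisense and both as strand options without saying which was set.

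From the counts, size factors were computed with scran 1.30.0 (R 4.3.3, pool sizes 10 and 20), and a level is log2(normalized count + 1). CPM divides by the reads of a cell. Levels per kb use the union of exons in GENCODE vM21. Cells are not replicates, so no p-value was computed. The 9 genes, the cells and the lists were chosen with earlier results of these data known. Named genes were the 9 genes, list genes called in either direction, Ppp3r1, Camk2n1 and Nrgn, and the 3 genes with the most alike pattern for 4 members. The columns N4 and N4X, correlated at 1.00 on log2(count + 1) (other pairs at most 0.72), were taken as 1 cell. A mix needed 100 reads. Some genes of the lists are not reported here. Alternatives were edgeR 4.0.16 TMM, DESeq2 1.42.0 poscounts and library size factors, pseudocounts of 10 and 0.1, summed CPM, thinning to 1715000 reads a cell, all labelled cells, transcript length and leaving out each cell. The steps were tested on simulated data. Other steps used matplotlib 3.10.9, scipy 1.17.1, pandas 2.3.3 and numpy 2.4.6 in Python 3.11.15.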

Additional observations from a re-analysis of the deposited data

Results flagged for a closer look

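Among 24 series of values of the 10 AC cells (CPM and log2 levels of the 9 genes and 6 portions of a mix), 4 held a cell far from the others by Dixon's 95% criterion for 10 values. In CPM these were Camk4 in N43 (248 against a median of 0, a gap of 0.948 of the whole range), Ppp3ca in N46 (2169 against 82.4, a gap of 0.838) and Ppp3cb in N7 (365 against 31.3, a gap of 0.615), and none of the 9 log2 levels held such a cell. Chance alone gives such a cell in about 1 of 20 groups of normally distributed values. The CPM values were skewed, with Camk4 at 0 in 7 of the 10 cells, and the rate for such values was not determined. The Camk2g portion of the calmodulin kinase II mix was 54.6% in N42, against a median of 2.21% over the 10 cells, a gap of 0.592 of the whole range. N42 was also the AC cell with the most microglia marker reads, 3707 CPM, whose part in this value was not tested.

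Reads of the 9 genes were also present in columns that enter no comparison. They summed to 4860 CPM in the dentate gyrus cell N11, to 1422 CPM in the dentate gyrus cell N12 and to 686 CPM in the NPY-negative CA3 cell N16. N11 held 89297 reads in all, with 210 on Camk2a and 183 on Calm2, and N12 held 190573. In N16, with 291745 reads, Calm2 had 145 reads and Ppp3ca 42. Camk2b had 0 reads in all 3 of these columns, at depths of at most 291745 reads.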

How the results depend on the processing

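No paired analysis was possible because the labels give no replicate number that links cells of different regions. The directions of the differences in level of Ppp3cb, Camk2d and Camk2g depended on the processing, those of Ppp3ca and Camk4 did so on the scale relative to all genes (Ppp3ca 0.20 and Camk4 0.14 with a pseudocount of 0.1), and those of Camk2a, Camk2b, Calm2 and Calm3 did not under the alternatives run. By the log2 ratio of summed CPM, the difference of Ppp3cb was −0.59 (−0.49 relative to all genes). On that scale the calls of Camk2a (0.45), Ppp3cb, Calm3 (−0.66) and Ppp3ca (−0.055) were lost, and Camk4, which did not meet the filter, was at −1.03. No share of all genes called on that scale stands beside these changes. With all labelled cells, Camk2d was at −0.025 relative to all genes in place of 1.35, Ppp3ca at 0.12 in place of −0.17, Camk4 at 0.84 in place of −0.03, and Calm2 as a percent of Calm2 plus Calm3 was higher in AC by 4.22 points in place of −0.53, and Ppp3r1 differed by 2.83 in place of −0.18. The gene and cell pairs with reads then made up 62.0% in AC (82.2% in the cells used) and 67.7% in CA3 (80.3%), and with a limit of 10 reads 70.1% in CA3. With reads summed over cells, the mix differences of Camk2a (−5.70 points) and Ppp3ca (6.37 points) changed sign from 5.71 and −11.4, both within the spread over cells, and that of Camk2b rose from 10.3 to 22.5 points and that of Calm2 went from −0.53 to −2.30. Levels over all reads without single cells were added after seeing the data. The cause was not tested. Leaving out 1 cell at a time, with size factors kept, the median difference of the 9 genes ran from −0.64 (without N42) to 0.22 (without N28) and relative to all genes from 0.10 to 1.15. The genes called towards AC then numbered 2 to 3 and those towards CA3 2 to 4. Camk2a ran from 0.84 to 1.86, Camk2b from 2.48 to 3.35, Calm2 from −1.48 to −1.15, Calm3 from −2.76 to −1.73, Camk4 from −1.75 to −0.31 and Ppp3cb from 1.67 to 2.54. The mix differences ran from 0.113 to 10.3 points for Camk2a, 5.94 to 15.3 for Camk2b, −6.28 to −1.17 for Camk2d, −18.0 to −6.39 for Camk2g, −1.63 to 0.152 for Calm2 and −17.4 to −3.79 for Ppp3ca. A pseudocount of 10 ended the calls of Camk2a (0.94) and Ppp3ca (−0.88) and, relative to all genes, of Camk2d (0.74), and with a pseudocount of 0.1 Camk4 was at −1.09.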
